A study of Mus musculus with 36 samples.

Results

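The 10 genes described here encode partners of the lipopolysaccharide (LPS) receptor and the proteins that carry its signal from the membrane. They are the LPS-binding partners Cd14 and Ly96, the adaptors Myd88, Tirap, Ticam1 and Ticam2, the IRAK family members Irak2, Irak3 and Irak4, and the membrane receptor Sigirr. They were listed by name for their place in the Toll-like receptor (TLR) pathway, with earlier results of these data known, and were 10 of the 54232 genes counted in each library. Counts of members set beside shares of all tested genes are therefore descriptions and not independent support. All 10 passed the filter on low counts, which left 12957 genes to test.

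LPS, a component of the outer membrane of Gram-negative bacteria, is handed by the surface protein CD14 to TLR4, where it binds the accessory protein encoded by Ly96 (also called MD-2). The activated receptor uses a pair of adaptor routes. MyD88, brought to the membrane by TIRAP (also called MAL), assembles IRAK kinases and leads to NF-kB, whereas TRIF (encoded by Ticam1), brought in by TRAM (encoded by Ticam2), leads to interferon regulatory factors and type I interferon. IRAK3 (also called IRAK-M) and SIGIRR are known as restraints on the MyD88 route.

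RNA was sequenced from mouse bone marrow-derived macrophages, which were marrow cells differentiated over 5 days in medium with 20 ng/mL macrophage colony-stimulating factor (MCSF). There were 6 groups of 6 libraries. Cells with the label NOS1 KO were treated with 100 ng/mL LPS for 2 h, with LPS for 8 h, or were controls, and cells with the label WT, whose strain the series text spells C65BL6, were handled in the same 3 ways. The labels say no more of the knockout allele or its strain background, and give no age, animal or culture for any library. P-values therefore weigh a group difference against the spread of libraries within groups. Part or all of that spread may be technical. The comparisons ask how LPS changed these transcripts at each time, and whether the genotype label went with a difference in their level or in their LPS response.

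Library totals lay between 8953489 and 18482551 counts, and levels are given as CPM, counts relative to the scaled library total. Nos1, the targeted gene, went against the genotype label: it lay between 2.46 and 5.07 CPM in KO-labelled controls, against 0 and 0.255 CPM in WT-labelled controls, and it summed to 253 counts in KO-labelled and 7 in WT-labelled libraries at 2 h, and to 96 and 9 counts at 8 h. The counts do not tell which part of Nos1 they cover, so genotypes are named here by their labels only. All 7 macrophage markers were present in every library (Adgre1, Csf1r, Cd68, Itgam, Mertk, Lyz2 and Fcgr1). The 7 T and natural killer cell markers summed to at most 0.607 CPM, and Cd3e was at 0 in all 36. Neutrophil and granule markers had median sums of 74.6 (control), 142 (2 h) and 95.1 CPM (8 h) under the KO label. Under the WT label these medians were 98.8, 181 and 131 CPM. B cell marker sums ranged from 2.98 to 47.7 CPM over all libraries. Erythroid and megakaryocyte marker sums ranged from 52.9 to 270 CPM, with Pf4 at a mean of 179 CPM. After group means were subtracted, the first principal component (34.6% of the variance) separated 18 libraries, called set A, from the other 18, called set B, with 3 of each in every group. No label records these sets. Library pairs of a group differed by a median chi-square per gene of 15.8 within set A, 3.46 within set B and 52.8 across the sets. Skeletal muscle markers summed to over 100 CPM in 4 WT-labelled libraries treated with LPS (118 to 4140 CPM) and to at most 64.6 CPM elsewhere. The 6 dendritic cell markers, all detected, summed to 6.43 to 11.7 CPM at 2 h and 8.4 to 15.2 CPM at 8 h in KO-labelled libraries, against 0.546 to 2.64 CPM in KO-labelled controls, and to 5.76 to 11.3 and 7.77 to 14.5 CPM in WT-labelled libraries with LPS, against 1.05 to 2.29 CPM in WT-labelled controls. The 7 stromal markers, all detected, summed to 18.1 to 33.5 CPM at 2 h and 32.9 to 51.1 CPM at 8 h in KO-labelled libraries, against 13.4 to 29.5 CPM in KO-labelled controls. In WT-labelled libraries they summed to 19 to 70.1 CPM at 2 h and 30.3 to 194 CPM at 8 h, against 19.7 to 40.5 CPM in controls. Fits were also run without the 4 libraries with muscle marker sums over 100 CPM. At 2 h they called 8 members in place of 9 in KO-labelled and 7 in place of 8 in WT-labelled libraries. Between 2 and 8 h they called 6 in place of 7 in WT-labelled libraries. The other counts of called members were unchanged. Why these calls were lost was not tested, nor was the part of the other markers in the results. In bulk RNA, fewer cells of a type and less RNA per cell cannot be told apart.

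Promoter sequences are shown for Myd88 and Irak2, the members with the highest levels per length after Cd14 at 8 h of LPS, and for Irak4, the member with the smallest change at 8 h. Each runs 5′ to 3′ on the gene's own strand, with 250 bases before and 50 bases after the RefSeq transcript start of assembly GRCm38.p6. The windows are chr9:119339969-119340268 on the minus strand for Myd88, chr6:113638217-113638516 on the plus strand for Irak2 and chr15:94543410-94543709 on the plus strand for Irak4. Capitals mark a match to the core of the interferon-stimulated response element (ISRE), the site bound by interferon-activated factors, searched as GAAA, any 2 bases and GAAA.
Myd88: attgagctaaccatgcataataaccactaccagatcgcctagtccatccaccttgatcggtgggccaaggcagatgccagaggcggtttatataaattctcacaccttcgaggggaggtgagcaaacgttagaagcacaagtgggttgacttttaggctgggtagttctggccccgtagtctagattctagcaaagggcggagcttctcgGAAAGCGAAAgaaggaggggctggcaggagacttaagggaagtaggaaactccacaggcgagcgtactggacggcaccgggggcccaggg
Irak2: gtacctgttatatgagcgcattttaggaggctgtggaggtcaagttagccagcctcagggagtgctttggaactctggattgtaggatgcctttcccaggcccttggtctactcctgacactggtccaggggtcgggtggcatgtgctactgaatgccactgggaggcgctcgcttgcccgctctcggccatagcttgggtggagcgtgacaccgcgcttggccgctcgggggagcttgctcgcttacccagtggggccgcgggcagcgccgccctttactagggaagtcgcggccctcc
Irak4: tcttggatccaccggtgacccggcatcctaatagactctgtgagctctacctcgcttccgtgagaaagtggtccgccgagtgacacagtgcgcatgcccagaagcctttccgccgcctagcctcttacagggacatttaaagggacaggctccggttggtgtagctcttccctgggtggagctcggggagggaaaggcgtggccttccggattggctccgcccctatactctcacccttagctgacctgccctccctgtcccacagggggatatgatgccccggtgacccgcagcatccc

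The RefSeq promoters of 6 members were examined (Myd88, Ticam1, Tirap, Irak2, Irak3 and Irak4), with 8 such windows because Tirap and Irak3 each had a second start. Cd14 and Ticam2, both on chromosome 18, were left out of this search, and no RefSeq promoter was found for Ly96 and Sigirr. Both strands were searched for the ISRE core, for the NF-kB consensus and for the AP-1 site TGANTCA, with overlaps allowed. The only match in the 8 windows was the ISRE core GAAAGCGAAA of Myd88, whose first base lies at -40 from the start. Over all 32851 RefSeq promoters of this length, 3.44% held the ISRE core, 8.46% the NF-kB consensus and 7.81% the AP-1 site. A match describes letters in a window only, and no match says only that these letters are not there.

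Before LPS the members spanned a wide range of levels, given here as mean ± SD CPM per kilobase of exon over the 6 controls of a label. Cd14 was the highest, at 124 ± 21.2 in KO-labelled and 113 ± 31.0 in WT-labelled controls, and Myd88 came next, at 19.8 ± 1.13 and 17.7 ± 1.86 CPM per kilobase under the same labels. Ly96 (10.6 ± 1.92 KO-labelled, 10.2 ± 1.63 WT-labelled), Ticam1 (10.2 ± 0.601, 9.49 ± 1.85) and Irak2 (9.43 ± 0.998, 8.41 ± 0.928) lay close together, each pair of neighbours differing by less than the larger of their SDs. Irak4 (6.38 ± 0.952, 5.99 ± 0.544) and Irak3 (4.86 ± 0.578, 4.63 ± 0.616) followed, further apart than their SDs. Tirap (2.54 ± 0.632, 2.36 ± 0.513) and Ticam2 (2.01 ± 0.552, 1.66 ± 0.192) were within an SD of each other in KO-labelled controls and not in WT-labelled controls, and Sigirr was the lowest, at 1.06 ± 0.220 CPM per kilobase in KO-labelled and 0.985 ± 0.262 in WT-labelled controls. At 8 h the order had changed: Myd88, at 153 CPM per kilobase in KO-labelled and 139 in WT-labelled libraries, and Irak2, at 82.3 and 83.6, followed Cd14 (521 and 653), while Sigirr stood at 0.149 and 0.106 CPM per kilobase.

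LPS raised most of these genes at both times. At 2 h, 8 members were called higher and 1 lower in KO-labelled libraries, against 18.9% of all tested genes called higher and 16.4% lower, and 8 were called higher and 0 lower in WT-labelled libraries, against 20.3% and 17.7% of all tested genes (edgeR quasi-likelihood test, Benjamini-Hochberg adjusted p below 0.05). At 8 h, 8 members were called higher and 2 lower under each label. Of all tested genes, 34.9% were called higher and 37.2% lower at 8 h in KO-labelled libraries, and 34.2% and 37% in WT-labelled libraries. Levels in LPS and control libraries did not overlap for 5 members at 2 h and 9 at 8 h in KO-labelled libraries, where 22.4% and 52.5% of all tested genes did not overlap. In WT-labelled libraries 6 and 9 members did not overlap, against 22.2% and 52.3% of all tested genes. The members' median log2 fold change over control was 0.92 at 2 h and 1.46 at 8 h in KO-labelled libraries, and 1.10 and 1.56 in WT-labelled libraries. Scaled by library totals alone, which moved the median log2 fold change of all genes to -0.31 at 2 h and -0.88 at 8 h in KO-labelled libraries and to -0.32 and -0.83 in WT-labelled libraries, 6 members were called higher and 2 lower at 2 h, and 7 higher and 2 lower at 8 h, under each label. That scaling made 20.3%, 19.5%, 20.7% and 19.9% of all calls higher ones, in the same order of comparisons, against 53.5%, 48.5%, 53.4% and 48% with the main scaling.

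**Figure D1:**
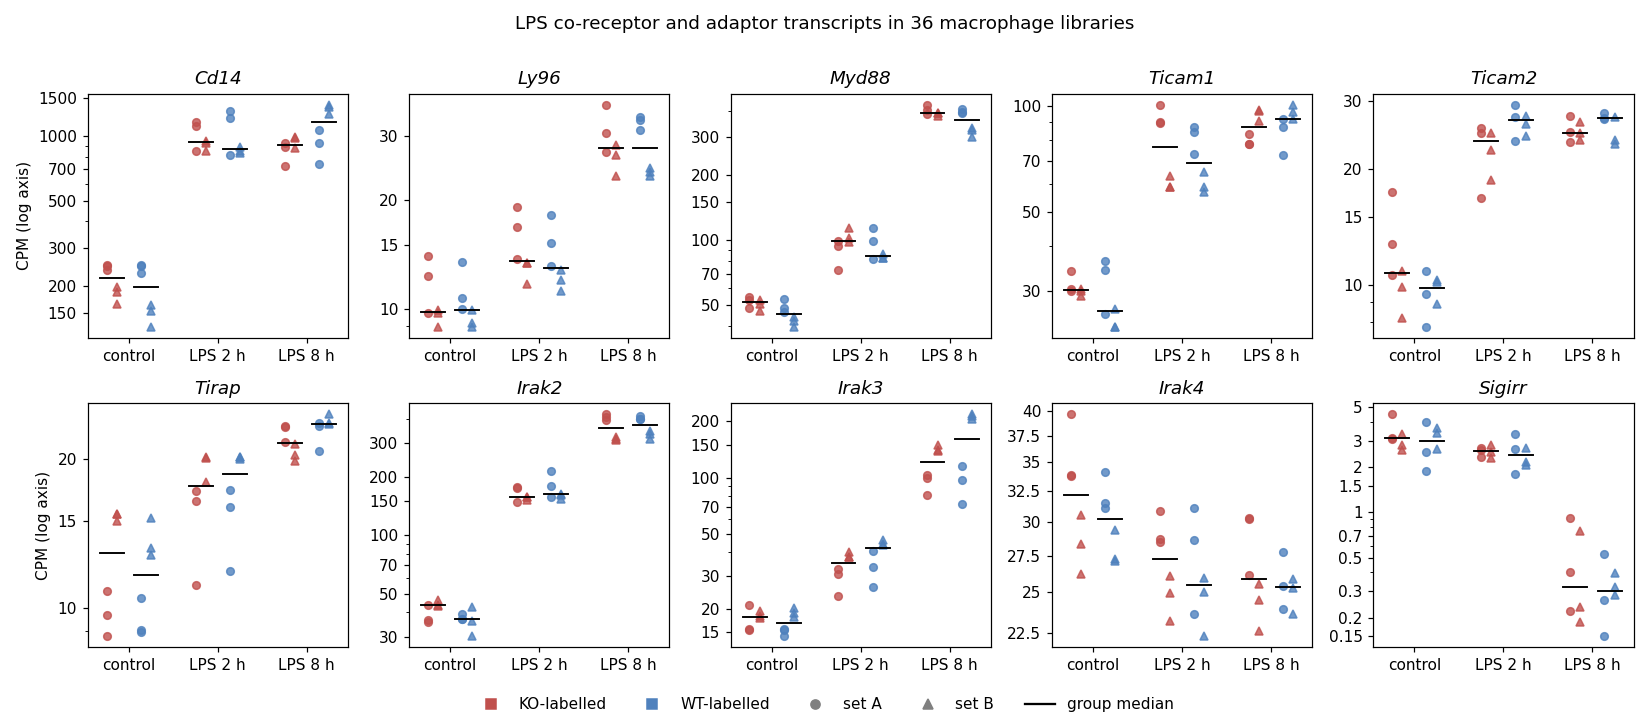
Library-scaled counts (CPM, log axis) of each of the 10 genes in each library, with KO-labelled libraries in red left of WT-labelled libraries in blue, circles for set A, triangles for set B and a bar at the median of 6. Myd88, Irak2 and Irak3 climb in steps from control to 8 h, Cd14 and Ticam2 have most of their change by 2 h, and Sigirr is lowest at 8 h, with at most 0.921 CPM among KO-labelled libraries and 0.527 CPM among WT-labelled ones.

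Of the receptor partners, Cd14 (the membrane-anchored LPS carrier; chr18:36725067-36726798, minus strand, ENSMUSG00000051439) had most of its change by 2 h, while Ly96 (the TLR4 subunit that holds LPS; chr1:16688051-16709611, plus strand, ENSMUSG00000025779) rose mostly between 2 and 8 h. CPM values are given in the order lowest, median and highest of 6 libraries. Cd14 in KO-labelled libraries was at 164, 218 and 251 CPM without LPS, 854, 939 and 1169 CPM at 2 h, and 729.5, 913 and 995 CPM at 8 h. Cd14 in WT-labelled libraries was at 129, 197 and 251 CPM without LPS, 820.3, 872 and 1313 CPM at 2 h, and 739.7, 1170 and 1402 CPM at 8 h. Every library with LPS lay above every control library of its label, and the 2 h and 8 h libraries overlapped. Cd14 was 4.56-fold higher than control at 2 h and 4.2-fold at 8 h in KO-labelled libraries, with log2 fold changes of 2.19 (SE 0.17, adjusted p = 7.45e-13) and 2.07 (SE 0.17, adjusted p = 5.37e-13). In WT-labelled libraries it was 5.05-fold and 5.78-fold higher, with log2 fold changes of 2.33 (SE 0.17, adjusted p = 1.44e-13) and 2.53 (SE 0.17, adjusted p = 4.66e-15).

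Ly96 in KO-labelled libraries was at 8.98, 9.86 and 14.1 CPM without LPS, 11.7, 13.6 and 19.2 CPM at 2 h, and 23.2, 27.7 and 36.5 CPM at 8 h. Ly96 in WT-labelled libraries was at 8.96, 9.98 and 13.5 CPM without LPS, 11.2, 13 and 18.2 CPM at 2 h, and 23.3, 27.8 and 33.7 CPM at 8 h. At 2 h, 2 of 6 libraries of each label lay above all controls of that label, and at 8 h all 6 did. Its log2 fold change at 2 h was 0.44 (SE 0.14, adjusted p = 0.0132) in KO-labelled and 0.41 (SE 0.14, adjusted p = 0.0215) in WT-labelled libraries, and neither passed the test under library totals alone (0.14 and 0.09). The KO-labelled call at 2 h was lost in set A alone (0.45). The WT-labelled call at 2 h was lost without the libraries with muscle markers (0.36), without the 6 libraries with BMDM written before the genotype (0.31), without 2 h replicate 6 (0.31) or without control replicate 5 (0.37). At 8 h it was 2.65-fold higher than control in KO-labelled libraries (1.41 (SE 0.14, adjusted p = 9.21e-11) on the log2 scale) and 2.72-fold higher in WT-labelled libraries (1.44 (SE 0.14, adjusted p = 5.79e-11)).

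On the MyD88 route, Myd88 (the shared adaptor of most TLRs and of the interleukin-1 receptor; chr9:119335934-119341411, minus strand, ENSMUSG00000032508) had the largest change of the 4 adaptors at 8 h. In KO-labelled libraries Myd88 was at 46.8, 51.6 and 54.4 CPM without LPS, 72.5, 98.8 and 114 CPM at 2 h, and 376.6, 389.3 and 426 CPM at 8 h. In WT-labelled libraries Myd88 was at 39.7, 45.3 and 53.2 CPM without LPS, 82.3, 84.6 and 114 CPM at 2 h, and 302, 362 and 405 CPM at 8 h. The 3 conditions did not overlap under either label, and the 8 h libraries lay far above the 2 h ones. Myd88 was 1.9-fold higher than control at 2 h and 7.75-fold at 8 h in KO-labelled libraries, with log2 fold changes of 0.92 (SE 0.09, adjusted p = 4.77e-10) and 2.95 (SE 0.10, adjusted p = 2.30e-23). The WT-labelled libraries gave log2 fold changes of 0.9996 (SE 0.09, adjusted p = 6.84e-11) and 2.97 (SE 0.10, adjusted p = 1.92e-23). Myd88 shares 11.3% of its exon bases with Acaa1a on the opposite strand, and whether reads were counted by strand is not given in the sources used here. The same limit holds for Irak4 (7.87% shared with Twf1) and Irak3 (5.22% with Tmbim4). It also holds for Tirap (9.05% with Gm39318 and 0.79% with Srpr) and Irak2 (4.44% with Gm43963).

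Tirap (the adaptor that tethers MyD88 at the membrane; chr9:35184551-35200291, minus strand, ENSMUSG00000032041) rose less. Its KO-labelled libraries were at 8.79, 12.9 and 15.5 CPM without LPS, 11.1, 17.6 and 20.2 CPM at 2 h, and 19.8, 21.6 and 23.3 CPM at 8 h. Its WT-labelled libraries were at 8.95, 11.7 and 15.2 CPM without LPS, 11.9, 18.7 and 20.2 CPM at 2 h, and 20.8, 23.6 and 24.7 CPM at 8 h. At 2 h, 5 of 6 libraries of each label lay above all their controls, and at 8 h all 6 did. The log2 fold change at 2 h was 0.45 (SE 0.15, adjusted p = 0.0185) in KO-labelled and 0.60 (SE 0.15, adjusted p = 0.0016) in WT-labelled libraries. At 8 h it was 0.78 (SE 0.15, adjusted p = 2.53e-05) in KO-labelled and 1.005 (SE 0.15, adjusted p = 4.84e-07) in WT-labelled libraries, and under library totals alone the 2 h values became 0.16 and 0.30 and the 8 h values -0.04 and 0.24, none of them called. The KO-labelled call at 2 h was also lost with the compared groups alone (0.43), without the 6 libraries (1 a group) with BMDM written before the genotype (0.39) and without any 1 of 4 libraries: control replicates 2 (0.37) and 6 (0.39), and 2 h replicates 4 and 5 (0.40 each).

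On the TRIF route, Ticam1 and Ticam2 had most of their change by 2 h over all libraries. The later course of Ticam1 varied by set. Its mean CPM without LPS, at 2 h and at 8 h was 31.4, 93.3 and 80 in KO-labelled set A and 29.7, 60.5 and 94.9 in KO-labelled set B. In WT-labelled libraries it was 32.1, 81.7 and 83.9 in set A and 24.7, 60.25 and 96.5 in set B. Ticam1 (TRIF; chr17:56269319-56276786, minus strand, ENSMUSG00000047123) in KO-labelled libraries was at 28.9, 30.1 and 34.1 CPM without LPS, 59.1, 76.4 and 101 CPM at 2 h, and 78.2, 87.0 and 97.5 CPM at 8 h. Ticam1 in WT-labelled libraries was at 23.7, 26.2 and 36.4 CPM without LPS, 57.0, 69.2 and 87.5 CPM at 2 h, and 72.6, 91.9 and 101 CPM at 8 h. All LPS libraries lay above all controls of their label. Its log2 fold changes were 1.33 (SE 0.13, adjusted p = 3.21e-10) at 2 h and 1.52 (SE 0.13, adjusted p = 3.09e-12) at 8 h in KO-labelled libraries, and 1.32 (SE 0.13, adjusted p = 3.46e-10) and 1.67 (SE 0.13, adjusted p = 3.42e-13) in WT-labelled libraries.

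Ticam2 (TRAM, the bridge between TLR4 and TRIF; chr18:46557291-46574533, minus strand, ENSMUSG00000056130) in KO-labelled libraries was at 8.21, 10.7 and 17.4 CPM without LPS, 16.8, 23.6 and 25.6 CPM at 2 h, and 23.5, 24.8 and 27.5 CPM at 8 h. Ticam2 in WT-labelled libraries was at 7.78, 9.83 and 10.8 CPM without LPS, 23.6, 26.7 and 29.4 CPM at 2 h, and 23.2, 27.1 and 27.9 CPM at 8 h. At 2 h, 5 of 6 KO-labelled and 6 of 6 WT-labelled libraries lay above all their controls, and 1 KO-labelled control reached 17.4 CPM, above the lowest 2 h library. Its log2 fold changes were 0.93 (SE 0.12, adjusted p = 1.35e-07) at 2 h and 1.12 (SE 0.12, adjusted p = 7.75e-10) at 8 h in KO-labelled libraries, and 1.46 (SE 0.12, adjusted p = 6.50e-12) and 1.44 (SE 0.12, adjusted p = 2.41e-12) in WT-labelled libraries. Ticam2 shares 14.5% of its exon bases, identical and on the same strand, with Tmed7, and Tmed7 itself was 0.69 higher at 8 h in KO-labelled and 0.57 in WT-labelled libraries (log2), so the split of reads between these genes is uncertain.

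**Figure D2:**
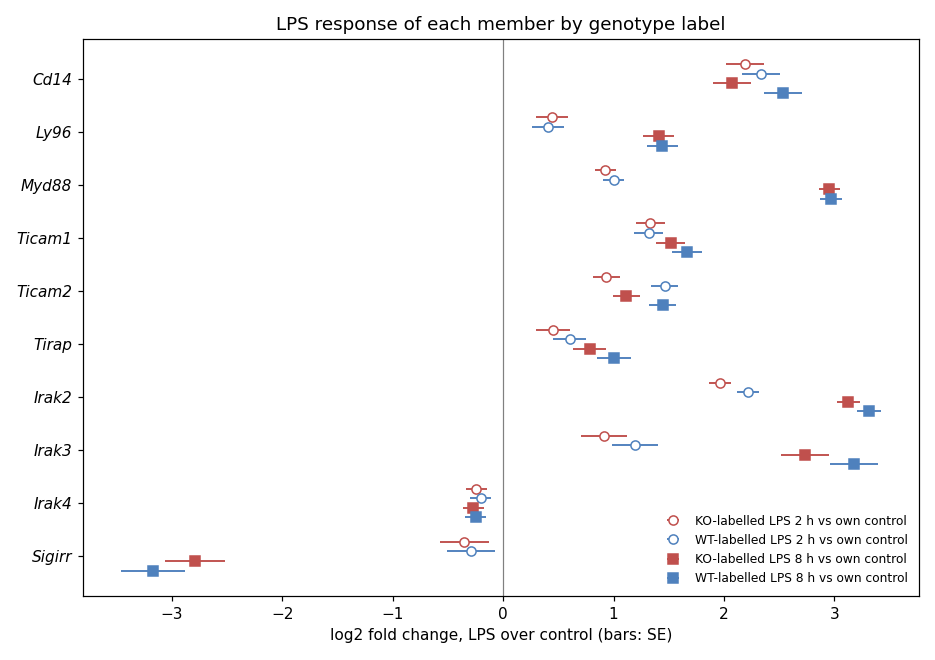
Log2 fold change of LPS over control for each gene by genotype label, with open symbols for 2 h, filled symbols for 8 h and bars for 1 standard error. Irak2, Irak3 and Myd88 reach 3.12, 2.73 and 2.95 at 8 h in KO-labelled and 3.31, 3.18 and 2.97 in WT-labelled libraries, and Sigirr lies at -2.79 and -3.17. KO-labelled Tirap at 8 h lies at 0.78. Scaling by library totals alone, which is not drawn, gave it -0.04.

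The 3 IRAK family members moved apart. Irak2 (a kinase of the MyD88 complex that acts downstream of IRAK4; chr6:113638467-113695026, plus strand, ENSMUSG00000060477) had the largest fitted rise of the 10 members at 8 h over all libraries and in set A. In set B, Irak3 was higher than Irak2 in log2 fold change, at 2.96 against 2.83 in KO-labelled and 3.51 against 3.21 in WT-labelled libraries. For Irak2, KO-labelled libraries held 35.7, 43.5 and 46.6 CPM without LPS, 149, 158 and 178 CPM at 2 h, and 311, 359.6 and 425 CPM at 8 h. For Irak2, WT-labelled libraries held 30.2, 37.2 and 42.6 CPM without LPS, 154, 163 and 216 CPM at 2 h, and 317, 372.1 and 416 CPM at 8 h. The 3 conditions did not overlap under either label. Irak2 was 3.89-fold and 8.72-fold higher than control at 2 and 8 h in KO-labelled libraries, with log2 fold changes of 1.96 (SE 0.10, adjusted p = 1.01e-17) and 3.12 (SE 0.10, adjusted p = 2.28e-23). In WT-labelled libraries it was 4.65-fold and 9.93-fold higher, with 2.22 (SE 0.10, adjusted p = 3.49e-19) and 3.31 (SE 0.11, adjusted p = 6.35e-24) on the log2 scale.

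Irak3 (IRAK-M, which is known to hold back release of IRAK1 and IRAK4 from the receptor complex; chr10:120141648-120202130, minus strand, ENSMUSG00000020227) rose more slowly. For Irak3, KO-labelled libraries held 15.3, 17.96 and 20.8 CPM without LPS, 23.5, 35.05 and 40.3 CPM at 2 h, and 80.8, 121 and 149.5 CPM at 8 h. For Irak3, WT-labelled libraries held 14.3, 16.8 and 20.0 CPM without LPS, 25.9, 42.1 and 46.3 CPM at 2 h, and 72.0, 161 and 218 CPM at 8 h. Again the 3 conditions did not overlap, although WT-labelled libraries at 8 h fell apart by set: 72.0 to 116 CPM in set A and 206 to 218 CPM in set B. Its log2 fold changes were 0.92 (SE 0.21, adjusted p = 0.000598) at 2 h and 2.73 (SE 0.22, adjusted p = 2.28e-13) at 8 h in KO-labelled libraries, and 1.20 (SE 0.21, adjusted p = 1.58e-05) and 3.18 (SE 0.22, adjusted p = 7.01e-15) in WT-labelled libraries.

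Irak4 (the first kinase recruited by MyD88; chr15:94543643-94581815, plus strand, ENSMUSG00000059883) changed little and downwards. For Irak4, KO-labelled libraries held 26.2, 32.2 and 39.6 CPM without LPS, 23.2, 27.3 and 30.9 CPM at 2 h, and 22.6, 25.9 and 30.3 CPM at 8 h. For Irak4, WT-labelled libraries held 27.1, 30.2 and 34.1 CPM without LPS, 22.3, 25.5 and 31.1 CPM at 2 h, and 23.7, 25.4 and 27.8 CPM at 8 h. Control and LPS libraries overlapped at each time under both labels. It was called lower at 2 h in KO-labelled libraries, at -0.24 (SE 0.09, adjusted p = 0.0425), but not in WT-labelled libraries, at -0.20 (SE 0.09, adjusted p = 0.0902), where it was called without 2 h replicate 1 (-0.26), with the set as a term (-0.20) and under library totals alone (-0.51). The difference between these responses was -0.04 (SE 0.13) and was not called. At 8 h it was 1.21-fold lower than control in KO-labelled libraries (-0.27 (SE 0.10, adjusted p = 0.0116)) and 1.19-fold lower in WT-labelled libraries (-0.25 (SE 0.10, adjusted p = 0.0201)). The 2 h call was lost without any 1 of 6 libraries (KO-labelled control replicates 1, 2 and 6 and 2 h replicates 3, 4 and 5; values of -0.23 to -0.17). It was also lost in set A alone (-0.28), with no filter on low counts (-0.22), with the compared groups alone (-0.26), without the libraries with muscle markers (-0.24) and without those with BMDM written before the genotype (-0.24). Each 8 h call was lost without control replicate 1 of its label (-0.20 in KO-labelled and -0.21 in WT-labelled libraries), and the WT-labelled one also in set B alone (-0.14).

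Sigirr (a receptor of the interleukin-1 receptor family that dampens MyD88 signalling; chr7:141091175-141100572, minus strand, ENSMUSG00000025494) was low throughout and fell late. KO-labelled libraries had Sigirr at 2.61, 3.11 and 4.504 CPM without LPS, 2.29, 2.56 and 2.80 CPM at 2 h, and 0.187, 0.319 and 0.921 CPM at 8 h. WT-labelled libraries had Sigirr at 1.87, 2.995 and 3.99 CPM without LPS, 1.80, 2.40 and 3.29 CPM at 2 h, and 0.151, 0.302 and 0.527 CPM at 8 h. The 8 h libraries held 2 to 9 counts each in the KO-labelled group and 1 to 4 counts in the WT-labelled group, and all 12 lay below every control and every 2 h library of their label. Sigirr was 6.93-fold lower than control at 8 h in KO-labelled libraries (log2 fold change -2.79 (SE 0.27, adjusted p = 3.09e-11)) and 9.02-fold lower in WT-labelled libraries (-3.17 (SE 0.29, adjusted p = 7.77e-12)). At 2 h its log2 fold changes were -0.35 (SE 0.22, adjusted p = 0.23) and -0.29 (SE 0.22, adjusted p = 0.313) in KO-labelled and WT-labelled libraries. Neither was called, but under library totals alone both were called lower (-0.65 and -0.60).

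Between 2 and 8 h, 4 members were called higher and 1 lower in KO-labelled libraries, against 31.5% and 33.7% of all tested genes, and 6 higher and 1 lower in WT-labelled libraries, against 30% and 32.8%. Myd88 rose by a further 2.03 (SE 0.10) in KO-labelled and 1.97 (SE 0.10) in WT-labelled libraries on the log2 scale. The other members called higher under both labels were Irak3 (1.82 and 1.98, KO-labelled and WT-labelled), Irak2 (1.16 and 1.10) and Ly96 (0.97 and 1.04). Sigirr fell under both, by 2.44 in KO-labelled and 2.88 in WT-labelled libraries. Tirap and Ticam1 were called higher in WT-labelled libraries only, at 0.40 (SE 0.15, adjusted p = 0.0198) and 0.35 (SE 0.13, adjusted p = 0.0196), and had 0.33 (SE 0.15, adjusted p = 0.0524) and 0.19 (SE 0.13, adjusted p = 0.212) in KO-labelled libraries. Whether these late changes differ between the labels was not tested. The KO-labelled Tirap value passed with DESeq2 (0.35), limma-voom (0.36), and in set A alone (0.615). It also passed with the set as a term (0.36), with the compared groups alone (0.32), and without any 1 of 8 libraries, of which KO-labelled 2 h replicates 4 and 5 moved it most (0.38 each). The WT-labelled Ticam1 call was lost in set A alone (0.04), without the libraries with muscle markers (0.35), with no filter on low counts (0.28) and without 2 h replicate 4 (0.30) or 5 (0.29). The WT-labelled Tirap call was lost without 2 h replicate 2 (0.31), with no filter on low counts (0.33) and without the libraries with BMDM written before the genotype (0.39). KO-labelled Ticam1 was at 78.2 to 83.5 CPM at 8 h, against 89.4 to 101 CPM at 2 h, in set A (-0.22, not called), and at 90.4 to 97.5 CPM, against 59.1 to 63.4 CPM, in set B (0.65, adjusted p = 5.25e-10). Under library totals alone the WT-labelled Tirap and Ticam1 values turned to lower ones (-0.06 and -0.11), and 4 members were called higher and 5 lower in KO-labelled libraries. Cd14, Ticam2 and Irak4 were not called under either label, with log2 changes of -0.12, 0.18 and -0.03 in KO-labelled and 0.20, -0.02 and -0.05 in WT-labelled libraries. WT-labelled Cd14 was at 739.7 to 1065 CPM at 8 h, against 820.3 to 1313 CPM at 2 h, in set A (-0.29, not called), and at 1274 to 1402 CPM, against 836 to 894 CPM, in set B (0.67, adjusted p = 6.75e-09). Whether these changes between 2 and 8 h differ between the sets was not tested.

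The genotype label went with no called difference in any member. KO-labelled over WT-labelled libraries, 0 of 10 members were called in controls, at 2 h and at 8 h by edgeR's quasi-likelihood test, against 0.147%, 0.0232% and 0.1% of all tested genes. At an unadjusted p below 0.05 there were 1, 1 and 0 members, with DESeq2 1, 0 and 0, and with limma-voom 0, 1 and 0, and neither of those tools called any after adjustment. Levels of KO-labelled and WT-labelled libraries overlapped for all 10 members at each time. Of all tested genes, 0.178%, 0.185% and 0.378% did not overlap. Counts of 0 among 10 members are near these small shares of all tested genes, so they do not set the members apart from other genes. Nor was any member's LPS response called different between the labels at 2 h (0% of all tested genes) or 8 h (0%), with 1 and 0 members at an unadjusted p below 0.05 by edgeR, DESeq2 and limma-voom alike.

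The intervals show what size of difference these libraries leave possible. In controls the log2 differences, KO-labelled minus WT-labelled, lay between 0.06 for Ly96 (95% interval -0.23 to 0.35) and 0.28 for Ticam2 (0.02 to 0.53), which was 0.12 without KO-labelled control replicate 1, the library at 17.4 CPM. At 8 h Cd14 had -0.33 (-0.66 to 0.01), Irak3 -0.37 (-0.78 to 0.03), Myd88 0.14 (-0.05 to 0.33) and Sigirr, with its few counts, 0.49 (-0.23 to 1.22). The edgeR test gave Sigirr an unadjusted p of 0.236, larger than this interval implies, so for Sigirr the interval is too narrow. The Sigirr value was 0.18 without KO-labelled 8 h replicate 1 and 0.28 without KO-labelled 8 h replicate 4. The smallest unadjusted p of an LPS response difference belonged to Ticam2 at 2 h: its response was 0.93 in KO-labelled and 1.46 in WT-labelled libraries, a difference of -0.53 (-0.88 to -0.17; adjusted p = 1). For Myd88 the responses at 8 h differed by -0.02 (-0.28 to 0.25).

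Genotype differences were also computed within each unlabelled set. Within set A, 0 members were called between the labels in controls, at 2 h, at 8 h or in the 8 h response, against 0.0548%, 0.0704%, 0.0469% and 0% of all tested genes. Within set B, where libraries of a group lay close together, 4 members were called in controls, 2 at 2 h, 4 at 8 h and 5 in the 8 h response, against 10.5%, 10.5%, 31.5% and 16.6% of all tested genes. In set B controls Cd14, Myd88, Ticam1 and Irak2 were higher in KO-labelled libraries by 0.31, 0.27, 0.28 and 0.30 (log2; set A gave 0.02, 0.07, -0.04 and 0.03). At 2 h in set B, Myd88 was higher in KO-labelled libraries by 0.33 and Irak3 had -0.20, where set A gave -0.16 and -0.21.

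At 8 h in set B, the KO-labelled libraries held 139 to 149.5 CPM of Irak3, against 206 to 218 CPM in the WT-labelled ones, and 884 to 995 CPM of Cd14, against 1274 to 1402 CPM. The log2 differences were -0.58 (adjusted p = 1.67e-09) and -0.51 (adjusted p = 3.84e-06), against -0.01 and -0.10 in set A, and Myd88 and Tirap had 0.26 and -0.23. Over all 36 libraries the edgeR test gave -0.37 (adjusted p = 0.588) for Irak3 and -0.33 (adjusted p = 0.543) for Cd14. The set B p-values rest on 3 libraries per group, which lay close together (median chi-square per gene 3.46). The 8 h response was smaller in KO-labelled than in WT-labelled set B libraries for Cd14 (-0.82), Irak3 (-0.56), Tirap (-0.41), Irak2 (-0.38) and Ticam1 (-0.31). When the difference between the sets was itself tested, 0 members were called for the genotype difference in controls, at 2 h or at 8 h, against 1.88%, 2.09% and 5.53% of all tested genes, with Irak3 at 8 h at -0.56 (SE 0.19, adjusted p = 0.074) and Myd88 at 2 h at 0.46 (SE 0.13, adjusted p = 0.0715) for set B minus set A.

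The 8 h LPS response itself differed between the sets for 3 members in KO-labelled libraries, against 22% of all tested genes, and for 3 in WT-labelled libraries, against 16.6%. In KO-labelled libraries the response in set B minus that in set A was 0.59 (SE 0.19, adjusted p = 0.0233) for Cd14, -0.80 (SE 0.18, adjusted p = 0.00135) for Tirap and -0.58 (SE 0.14, adjusted p = 0.00219) for Irak2. In WT-labelled libraries it was 1.28 (SE 0.19, adjusted p = 1.31e-05) for Cd14, 0.83 (SE 0.20, adjusted p = 0.00333) for Irak3 and 0.59 (SE 0.14, adjusted p = 0.00323) for Ticam1. The sets did not overlap for Cd14 in WT-labelled libraries: set B held 1274 to 1402 CPM at 8 h and 129 to 164 CPM without LPS, and set A 739.7 to 1065 CPM at 8 h and 230 to 251 CPM without LPS. What separates the sets was not tested.

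**Figure D3:**
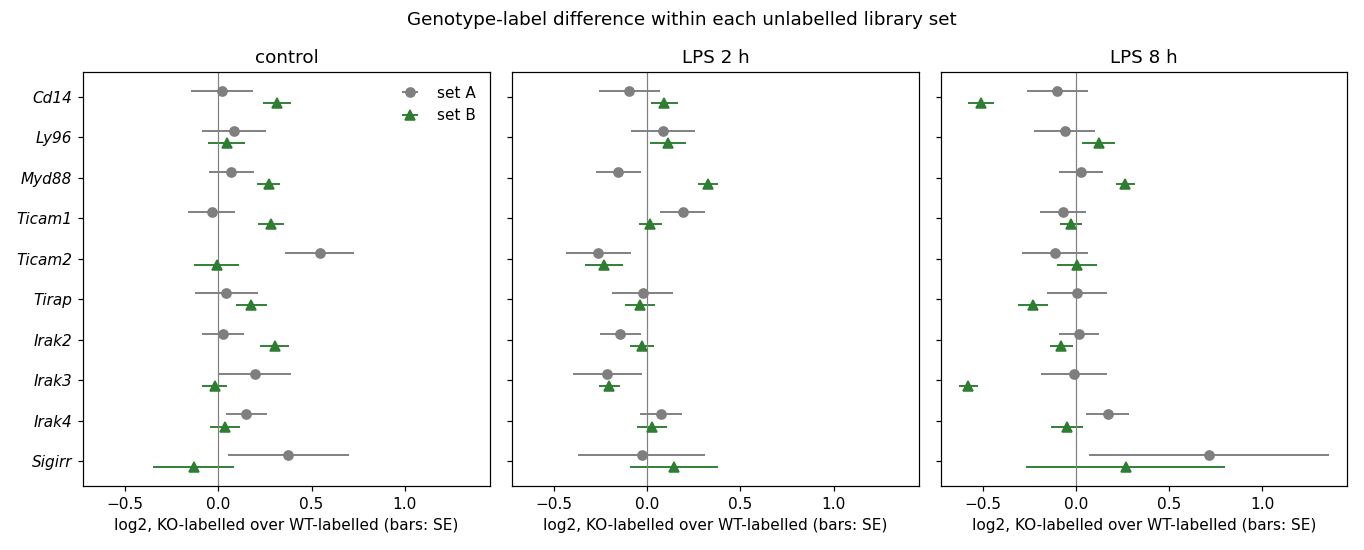
Log2 difference of KO-labelled over WT-labelled libraries for each gene in controls, at 2 h and at 8 h, computed within set A (grey circles) and within set B (green triangles), with bars for 1 standard error. At 8 h, Irak3 and Cd14 lie at -0.58 and -0.51 in set B and at -0.01 and -0.10 in set A.

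Around these members, 38 of 40 listed genes of the TLR4 pathway were tested (Ube2v1 and Sarm1 had too few counts). This list, too, was chosen with earlier results of these data known, so its counts are descriptions only. At 2 h, 19 were called higher and 6 lower in KO-labelled libraries and 21 and 6 in WT-labelled libraries. The shares of all tested genes were 18.9% and 16.4% in KO-labelled and 20.3% and 17.7% in WT-labelled libraries. At 8 h, 20 were called higher and 7 lower in KO-labelled libraries (34.9% and 37.2% of all tested genes) and 21 and 6 in WT-labelled libraries (34.2% and 37%). None was called between the genotype labels by edgeR in controls, at 2 h or at 8 h, with 1, 0 and 3 at an unadjusted p below 0.05. Set A alone called 0 in each of these comparisons, whereas set B alone called 8 in controls, 6 at 2 h and 15 at 8 h, against 10.5%, 10.5% and 31.5% of all tested genes in set B. The receptor itself, Tlr4, was lower at 2 h: KO-labelled libraries held 76.5, 89.4 and 96.9 CPM without LPS, 45.7, 51.3 and 54.8 CPM at 2 h, and 38.3, 65.3 and 91.7 CPM at 8 h, and WT-labelled libraries 56.5, 79.2 and 94.8 CPM without LPS, 34.4, 36.7 and 64.9 CPM at 2 h, and 37.2, 52.5 and 83.0 CPM at 8 h. Its log2 fold change at 2 h was -0.80 (SE 0.21, adjusted p = 0.00244) in KO-labelled and -0.80 (SE 0.21, adjusted p = 0.00248) in WT-labelled libraries, and at 8 h -0.41 (SE 0.21, adjusted p = 0.073) and -0.42 (SE 0.21, adjusted p = 0.0697), not called. On the receptor side 1 of 8 genes was called higher and 3 lower at 2 h in KO-labelled libraries and 2 and 3 in WT-labelled libraries. Branches of this size are given as counts only, to be read against those shares of all tested genes.

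Irak1, the kinase partner of Irak2 and Irak4, was at -0.00 and -0.02 at 2 h in KO-labelled and WT-labelled libraries, not called, and was called lower at 8 h, at -0.56 (adjusted p = 2.12e-06) and -0.61 (adjusted p = 5.85e-07). Traf6, the ubiquitin ligase that IRAK kinases activate, rose by 0.57 and 0.71 at 2 h in KO-labelled and WT-labelled libraries and stood at 0.16 (not called) and 0.35 (called) at 8 h. Of the MyD88 branch's 14 genes, Peli1, a ubiquitin ligase of IRAK complexes, rose by 3.84 and 3.79 at 2 and 8 h in KO-labelled and 3.96 and 3.61 in WT-labelled libraries. Tab1, a partner of the kinase TAK1, fell by 1.09 and 1.30 at 2 h in KO-labelled and WT-labelled libraries. Peli2, a relative of Peli1, was called lower at 8 h, at -3.71 in KO-labelled and -3.43 in WT-labelled libraries. It held few counts at 8 h, 1 to 15 per KO-labelled and 0 to 12 per WT-labelled library.

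Among 7 tested inhibitors and modulators, 4 were called higher and 0 lower at 2 h in KO-labelled libraries and 5 and 1 in WT-labelled libraries, and 5 and 1 under each label at 8 h. Of all tested genes, 18.9% were called higher and 16.4% lower at 2 h in KO-labelled libraries and 20.3% and 17.7% in WT-labelled libraries, and at 8 h 34.9% and 37.2%, and 34.2% and 37%. Tnfaip3, which encodes the deubiquitinase A20, rose by 4.68 and 4.77 at 2 and 8 h in KO-labelled libraries and by 4.60 and 4.69 in WT-labelled libraries. Il1rl1, a receptor of the same family as Sigirr, was at -3.94 in KO-labelled and -3.47 in WT-labelled libraries at 8 h, both called lower. These values rest on few counts, 0 to 5 per KO-labelled and 1 to 8 per WT-labelled library at 8 h. Of the TRIF branch's 9 genes, 5 were called higher and 2 lower at 2 h in KO-labelled libraries and 5 and 1 in WT-labelled libraries, and 4 and 0 under each label at 8 h. The median of the 38 genes was 0.22 at 2 h and 0.49 at 8 h in KO-labelled libraries and 0.35 and 0.51 in WT-labelled libraries (log2).

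**Figure D4:**
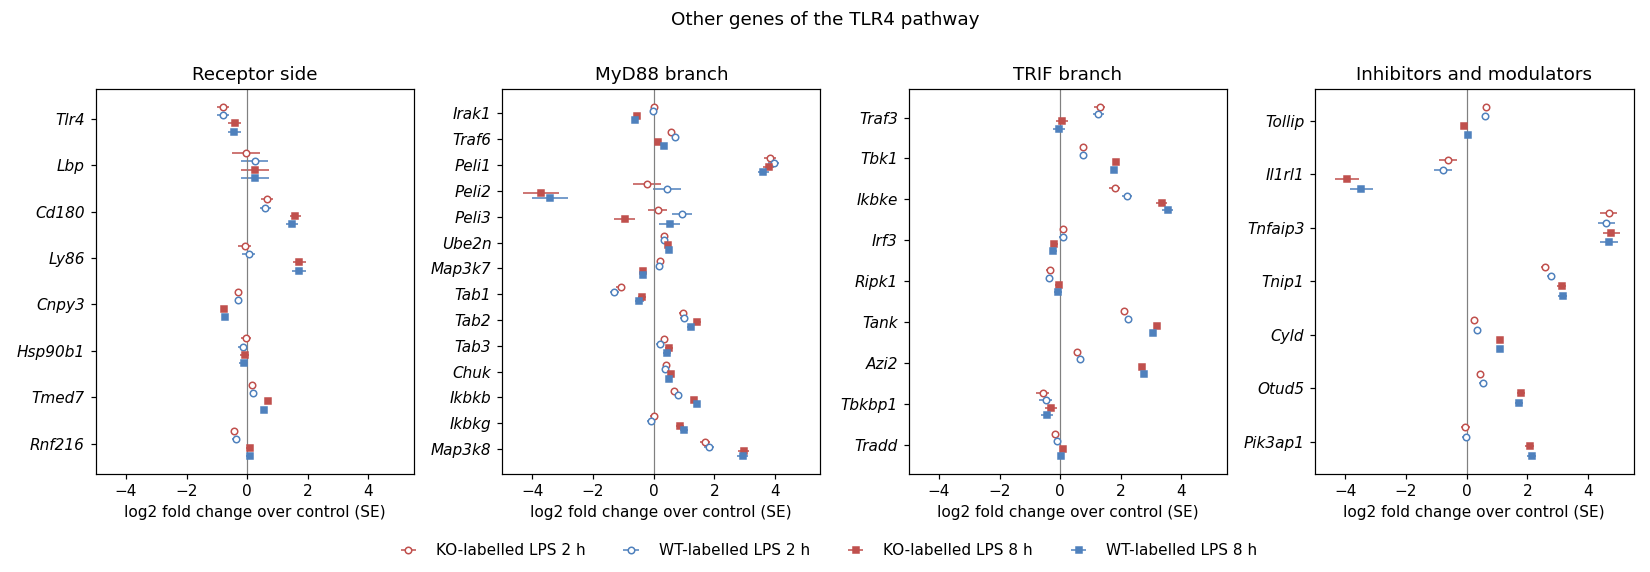
Log2 fold change of LPS over control for the 38 other pathway genes, by branch, with KO-labelled libraries in red, WT-labelled libraries in blue, open circles for 2 h, filled squares for 8 h and bars for 1 standard error. Tnfaip3 and Peli1 lie furthest to the right at 2 h (4.68 and 3.84 in KO-labelled libraries), and Il1rl1 and Peli2 furthest to the left at 8 h (-3.94 and -3.71 in KO-labelled libraries). The KO-labelled 8 h libraries held only 0 to 5 counts of Il1rl1 and 1 to 15 of Peli2.

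The genes whose log2 CPM followed each member most closely were found by Pearson's r over the 36 libraries. They were sought among 9320 genes (9321 for Sigirr) whose log2 CPM averaged at least 2. Genes without a name, or with a symbol that starts with Gm and a digit or ends in Rik, were left out. The 36 libraries share 6 conditions and 2 sets, so these values describe shared patterns and carry no test. Cd14 ran closest to Junb (r = 0.982) and Relb (0.981), and Ly96 to Mthfsl (0.984) and Anxa4 (0.977). Myd88 ran closest to Triobp (0.993) and Cxcl9 (0.992). Ticam1 ran closest to Vps37c (0.971) and Nfkbib (0.969), Ticam2 to Marcks (0.963) and Rassf4 (0.96), and Tirap to Vcam1 (0.933) and Pcgf3 (0.91). Irak2 had Clic4 and Kpna3 (0.993 each), and Irak3 had Surf4 (0.987) and Saa3 (0.985). Irak4, which moved least, had the lowest values, with Ago4 (0.862) and Ypel2 (0.844), and Sigirr had Fads1 (0.958) and Cenpa (0.956).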

How the data were processed

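The authors deposited unnormalized whole-number read counts for each gene, made with HTSeq on mm10 per the submitters' processing notes; their aligner, annotation, HTSeq version and use of strand were not given in the sources used here. Of 54232 identifiers, 54165 were named from GENCODE M21 and 67 were not found; 0 rows held unassigned reads. Replicate numbers follow accession order and were not used to pair libraries. Replicate libraries of a group differed by a chi-square per gene of at least 2.16, so none were merged.

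These counts went into edgeR 4.0.16 (R 4.3.3), with filterByExpr on the 6 groups (12957 genes kept), TMM scaling, and a quasi-likelihood fit with 1 mean per group over all 36 libraries. Genes with a Benjamini-Hochberg adjusted p below 0.05 over all tested genes were called. CPM are relative to the TMM-scaled library sizes. Standard errors (SE) came from the F statistic, and 95% intervals used 30 residual degrees of freedom. The fit was also run on simulated counts, drawn independently for each library, with changes placed in the KO-labelled LPS 2 h group. That simulation held no library sets, so it does not tell how the sets bear on the p-values. The depth of 8953489 to 18482551 counts limits genes with few counts, such as Sigirr.

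The text names all 10 members; Tlr4, Irak1 and Traf6; for each LPS comparison the 2 largest and 2 smallest called changes of the pathway list; the 2 genes most like each member; and Nos1. Tmed7 was added for the exon bases it shares with Ticam2. The members and lists were chosen with earlier results of these data known. The alternatives were DESeq2 1.42.0 and limma-voom (limma 3.58.1), other scaling and filters, the compared groups alone, the library sets as a term or alone, and leaving out libraries. The difference between sets was chosen after seeing the data. Copies of members were searched with blastn 2.17.0 (at least 95% identity over 300 bases). Besides Tmed7, the pseudogene-like Gm7229 matched Irak2 over 645 bases and held 9 counts in all libraries. The antisense gene Gm39318 matched Tirap over 443 bases at 100% identity and held 7 counts.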

Additional observations from a re-analysis of the deposited data

Results flagged for a closer look

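Of 60 groups of 6 libraries (10 genes in 6 groups), 3 held a library whose gap to its nearest neighbour was a large share of the group's range, and chance gives such a gap in about 1 group in 20. Ticam1 was at 34.07 CPM in KO-labelled control replicate 2, where the next library was at 30.29 CPM. Tirap was at 20.83 CPM in WT-labelled LPS 8 h replicate 6, below the next library at 23.4 CPM; this library is one of those with skeletal muscle markers, which summed to 118 CPM in it, and their part in the value was not tested. Sigirr was at 4.504 CPM in KO-labelled control replicate 1, where the next library was at 3.318 CPM.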

How the results depend on the processing

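No paired analysis was run, because the labels carry no replicate numbers. Libraries of a label with the same replicate number fell in the same set in every condition, but they were not fitted as blocks. The set was fitted as a term. Scaling by library totals alone brought the members called between 8 h and 2 h in KO-labelled libraries to 9, against 5 with TMM, and turned the direction of Tirap at 8 h over control in KO-labelled libraries (-0.039), of Ticam1 (-0.33) and Ticam2 (-0.34) between 8 h and 2 h in KO-labelled libraries, and of Ticam1 (-0.11) and Tirap (-0.0636) between 8 h and 2 h in WT-labelled libraries. Set B alone called 4 members between the genotype labels in controls, 2 at 2 h, 4 at 8 h and 5 in the 8 h response, each against 0 with all libraries; the cause was not tested. The other alternatives kept every count of called members within 1.5 times the main one. Over 1319 single values under alternatives other than leaving out 1 library, 1262 kept their side of the threshold, 31 gained a call, 21 lost one with no change of sign, and the 5 above changed direction and were called in at least 1 of the 2 fits compared. Among the 1262, 39 were uncalled in both fits and changed sign. Over 3960 values without 1 library, 3934 kept their side of the threshold (65 of them uncalled values that changed sign), 9 gained a call and 17 lost one. The calls lost without 1 library were those of Irak4 at 2 and 8 h, Tirap and Ly96 at 2 h, and Ticam1 and Tirap between 2 and 8 h in WT-labelled libraries. Ticam1 between 2 and 8 h in WT-labelled libraries was 0.04 in set A alone. The fit to compared groups alone gave no value for Sigirr between the labels at 8 h, where its counts were too few.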
